A study of Mus musculus with 96 samples.

Results

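The genes described here encode 2 beta subunits of the sodium pump (Na,K-ATPase), Atp1b1 and Atp1b3, and 6 of its small regulators, Fxyd1 to Fxyd6. They are the 8 of the 54532 rows of the deposited expression table whose symbol matches this list, with 1 row each, and all 8 passed the filter on low values (at least 1 TPM, a length-normalised share of each sample's transcripts, in at least 3 mice), as did 33793 genes in all. TPM is per transcript length, so levels of different genes can be set side by side.

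The study measured RNA in 15 microdissected pieces of the nephron, the filtering and transporting tube of the kidney, from male C57BL/6 mice aged 6 to 8 weeks. The abbreviations stand for glomerulus (GL), proximal tubule segments (PTS1, PTS2, PTS3), descending thin limb of short loops (DTL1), descending thin limb of long loops in the outer medulla (DTL2) or inner medulla (DTL3), ascending thin limb (ATL), thick limb in the medulla (MTAL) or cortex (CTAL), distal convolution (DCT), connecting segment (CNT), and collecting duct in the cortex (CCD), outer medulla (OMCD) or inner medulla (IMCD). The 93 samples were averaged to 53 mouse values, a mouse being 1 mouse number within 1 group: 5 in PTS2, CTAL and CCD, 4 in ATL and OMCD, and 3 in each other group. Whether a number stands for the same animal in several groups is not given by the labels, so p-values measure the spread between these mouse values.

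The pump moves sodium out of the cell and potassium in, and it drives sodium reabsorption along the tubule. Its catalytic subunit reaches the cell membrane together with a glycosylated beta subunit. An FXYD protein, a short protein with a single membrane span, can join the complex and shift its affinity for sodium or potassium or its turnover. In the kidney, different FXYD proteins are known to be present in different tubule segments.

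The FXYD genes share a short signature that gives the family its name, and the stretches around it are shown because they are the part common to the 6 genes whose levels differ below. Each run is 84 bases of coding sequence, 5′ to 3′, from 1 principal transcript per gene in GENCODE M21, with the 12 bases that code for the signature in capitals.
Fxyd1: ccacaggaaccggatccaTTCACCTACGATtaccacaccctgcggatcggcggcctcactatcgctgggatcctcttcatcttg
Fxyd2: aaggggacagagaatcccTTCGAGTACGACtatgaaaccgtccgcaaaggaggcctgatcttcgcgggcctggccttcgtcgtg
Fxyd3: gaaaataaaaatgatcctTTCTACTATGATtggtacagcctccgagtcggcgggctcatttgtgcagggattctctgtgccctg
Fxyd4: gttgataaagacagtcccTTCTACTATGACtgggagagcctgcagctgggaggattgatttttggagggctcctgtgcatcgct
Fxyd5: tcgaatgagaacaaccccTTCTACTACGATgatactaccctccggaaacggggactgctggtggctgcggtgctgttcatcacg
Fxyd6: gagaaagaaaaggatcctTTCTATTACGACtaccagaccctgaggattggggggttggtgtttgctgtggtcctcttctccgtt
All 6 genes code the signature with different bases. Over the 84 bases, identity between pairs ran from 51.2% (Fxyd3 and Fxyd5) to 64.3% (Fxyd1 and Fxyd6), with a median of 57.1% over 15 pairs. Among the 6 transcripts used, Fxyd2 has the shortest coding sequence, 64 codons, and Fxyd5 the longest, 178 codons.

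The groups were not equally free of other RNA. Odorant and vomeronasal receptor genes, which the kidney is not known to use broadly, were taken as a measure of background among 1740 such genes. The number at 1 TPM or more ran from 704 to 861 per mouse in DTL1, 372 to 840 in GL, 466 to 517 in DTL3, 260 to 362 in DTL2, 69 to 239 in OMCD and 0 to 27 in PTS1 to PTS3, MTAL, CTAL, DCT, CNT, CCD and IMCD. In ATL it was 17 to 29 in mice 2 and 3 and 576 to 659 in mice 4 and 6. Each group carried markers of its own type, for example Umod 34039 to 38232 TPM in CTAL, Slc12a3 5528 to 5925 TPM in DCT, Psca 9765 to 16933 TPM in ATL and Aqp2 25310.4 to 29536 TPM in IMCD. Some also held markers of others: the 5 proximal markers (Slc34a1, Lrp2, Slc22a6, Kap and Cyp4b1) summed to 1268 to 4412 TPM in DTL1 and 936 to 1013 TPM in GL, against 242 to 490 TPM in DTL2 and 63805 to 83754 TPM in PTS3. In DTL1 the thin descending limb list summed to 4111 to 10040 TPM. The part of these other cells in the comparisons of DTL1 was not tested.

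Atp1b1 (ENSMUSG00000026576), the beta subunit of most tubule epithelia, was high in all 14 tubule segments and low in the glomerulus. In the glomerulus it was 8.85, 16.9 and 10.1 TPM in the 3 mice, and in CTAL, where its mean was highest, it was 2054, 2492, 1971, 2588 and 2526 TPM in the 5 mice. The lowest tubule mouse, in PTS1, held 364 TPM, far above the glomerular mice. PTS1 and PTS3 held the lowest tubule means as deposited, while after median ratio rescaling DTL1 was lowest (483 TPM, against 626 in PTS1 and 733 in PTS3). The proximal levels were 385 ± 27.6 TPM in PTS1 (mean ± SD, n = 3), 760.2 ± 59 in PTS2 (n = 5) and 440.5 ± 43.2 in PTS3 (n = 3). Among the thin limbs DTL1 held 628 ± 123 TPM, DTL2 1940.2 ± 157, DTL3 1127 ± 72 and ATL 1520.4 ± 168. Thick limb and DCT followed at 1749 ± 485 in MTAL, 2326 ± 290.01 in CTAL and 1898 ± 51 TPM in DCT. In the connecting tubule Atp1b1 was 1567 ± 84.1 TPM, and along the collecting duct 1387 ± 45.6 in CCD, 1453 ± 113 in OMCD and 942 ± 115 in IMCD. None of the 7 steps between neighbours from ATL to IMCD reached 1 log2 unit, the largest being that from OMCD to IMCD (OMCD minus IMCD 0.63, SE 0.15, adjusted p 0.000601 by limma). When the groups were put in order of their means, mice of neighbouring groups overlapped in 11 of 14 pairs, so most single steps in that order were within the spread between mice. Nme7 overlaps Atp1b1 on the other strand, and whether counting used strand is not given in the sources used here; its group means ran from 31.8 to 108 TPM.

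Atp1b3 (ENSMUSG00000032412), the other widely used beta subunit, followed a different order. It was highest in the descending thin limbs, at 501, 441 and 510.4 TPM in DTL2, 504, 510.1 and 397 in DTL1 and 434, 408 and 458 in DTL3, and lowest in PTS3, at 73.6, 50.3 and 69.3. The mice of DTL1 and DTL2 overlapped, and all 6 stood above every PTS3 mouse. The glomerulus held 376 ± 29.2 TPM (n = 3), ATL 359 ± 76.9 (n = 4), IMCD 348 ± 70.9 (n = 3) and OMCD 301 ± 33.2 (n = 4). ATL mice 2 and 3 held 411 and 439 TPM, and mice 4 and 6 held 294 and 292 TPM. IMCD mouse 1 held 267 TPM, and mice 2 and 3 held 382 and 396 TPM. GL, DTL1, DTL2 and DTL3 were also high in receptor background and had the highest sums of the endothelial genes listed below. The part of this in the Atp1b3 levels was not tested. MTAL held 223 ± 25.7, CCD 221 ± 14.2, CTAL 198 ± 12.7, CNT 152 ± 6.84, PTS2 107 ± 12.4, DCT 104 ± 4.33 and PTS1 75.4 ± 2.4 TPM. The range from the lowest to the highest group mean was 7.52-fold for Atp1b3 and 195-fold for Atp1b1.

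The 2 beta genes were set against each other as Atp1b3's percent of their sum in each mouse. That share was 97 ± 0.939% in the glomerulus and 43 ± 3.06% in DTL1, against 5.19 ± 0.308% in DCT, the lowest value. It was 27.8 ± 1.95% in DTL3 and 26.9 ± 2.84% in IMCD, and between 7.97% (CTAL) and 20% (DTL2) in the other groups. From DCT on, the mean share was higher in each next segment, at 8.86% in CNT, 13.7% in CCD and 17.2% in OMCD. These shares are descriptions and were not tested.

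**Figure D1:**
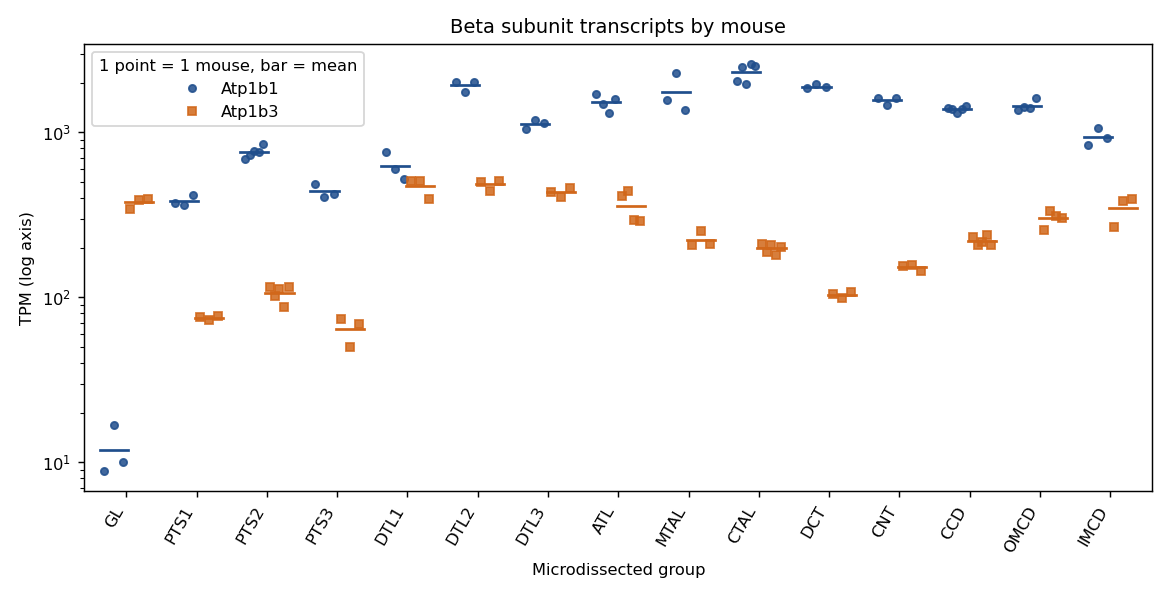
Levels of Atp1b1 (circles) and Atp1b3 (squares) in TPM on a log axis for the 15 groups, 1 point per mouse with a bar at the mean. Atp1b3 lies above Atp1b1 in the glomerulus and below it in every tubule segment, with the closest approach in DTL1.

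Fxyd2 (ENSMUSG00000059412) encodes the gamma subunit, which lowers the pump's affinity for sodium and whose human counterpart is mutated in a hereditary magnesium loss. It was the most abundant of the 8 genes in MTAL, at 22331, 21254 and 29330.4 TPM, and in DCT, at 14349, 13132 and 13065 TPM. Both groups lay above every mouse of CTAL, the segment between them, at 3714, 5527, 4425, 4650 and 5376 TPM. The difference was 2.35 on the log2(TPM + 1) scale between MTAL and CTAL (SE 0.18, adjusted p 6.41e-14 by limma), a 5.13-fold ratio of means, and 1.52 between DCT and CTAL (SE 0.18, adjusted p 3.94e-09 by limma).

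Past the DCT, Fxyd2 fell step by step and then returned. It was 2160.3, 2133 and 2482 TPM in CNT, 474, 572, 761, 461 and 568 in CCD and 15.6, 21.7, 22.5 and 12.2 in OMCD. In IMCD it was 8144, 7951 and 7182 TPM. Every IMCD mouse lay above every CNT, CCD and OMCD mouse, and the OMCD values were as low as those of the glomerulus (18.8, 33.8 and 10.5 TPM). The steps on the log2 scale were 2.58, SE 0.20, adjusted p 3.82e-14 by limma for DCT minus CNT, 2.02, SE 0.18, adjusted p 2.85e-11 by limma for CNT minus CCD, and 4.92, SE 0.16, adjusted p 8.8e-27 by limma for CCD minus OMCD. The return was -8.71, SE 0.18, adjusted p 3.93e-35 by limma for OMCD minus IMCD, a 431-fold ratio of means. Of all 33793 genes, 3.40% were called higher in IMCD in that comparison. Its calls were higher in OMCD for 81.7% of genes called, and for 45.9% after quantile normalization. The thin descending limb list (Aqp1, Slc14a2 and Fst) summed to 2.1 to 13.6 TPM in OMCD and 1402 to 2681 TPM in IMCD. In IMCD this sum was nearly all Slc14a2, a urea transporter gene also known from the inner medullary duct (1401 to 2681 TPM), with Aqp1 at 0.04 to 2.03 TPM. The part of thin limb cells in the Fxyd2 level of IMCD was not tested. In these bulk samples, fewer cells of a type and less RNA per cell cannot be told apart.

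In the proximal tubule and thin limbs Fxyd2 was 8013 ± 307 TPM in PTS1, 3476 ± 271 in PTS2 and 4548 ± 215 in PTS3. It was 704, 536 and 723 TPM in DTL1 against 8159, 8101 and 7920.2 in DTL2 and 6952, 7394 and 6491 in DTL3, so the short-loop limb was far below both pieces of the long-loop limb (DTL1 minus DTL2 -3.63, SE 0.20, adjusted p 4.69e-19 by limma). In ATL it was 13957, 9968, 7358 and 10509.5 TPM in mice 2, 3, 4 and 6, which stood below all 3 MTAL mice.

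Fxyd4 (ENSMUSG00000004988) encodes the corticosteroid-induced channel-inducing factor, CHIF, which raises the pump's affinity for sodium. From DCT to OMCD its order was the reverse of that of Fxyd2. It was 5.33, 3.14 and 7.28 TPM in DCT, 2247, 2754 and 1810.4 in CNT, 5282, 4763, 5477, 5856 and 4879 in CCD and 16459.6, 15308, 13684 and 15148 in OMCD, with no overlap between mice of neighbouring segments. The entry into CNT was the largest step of the 14 neighbouring comparisons for Fxyd4 (DCT minus CNT -8.84, SE 0.51, adjusted p 6.1e-18 by limma). CNT and CCD differed by 1.23 (SE 0.46, adjusted p 0.288 by limma), which did not pass. It passed without ATL mouse 3 (adjusted p 0.0337), with ATL mice 2 and 3 alone (0.0414) or 4 and 6 alone (0.0118), with a pseudocount of 5 (0.0459) and under quantile normalization (CNT minus CCD -1.63, adjusted p 0.0303). OMCD was higher than CCD (CCD minus OMCD -1.53, SE 0.42, adjusted p 0.00583 by limma).

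The 3 IMCD mice were not alike for Fxyd4. Mouse 1 held 6389.9 TPM, and mice 2 and 3 held 1475 and 1457 TPM. Its 3 pieces held 4247, 9272 and 5651 TPM, those of mouse 2 held 2949, 714 and 764 TPM, and those of mouse 3 held 1282, 1511 and 1579 TPM. Mouse 1 also had the lowest endothelial sum (21 TPM, against 206 and 302 in mice 2 and 3) and a median ratio scale factor of 0.886 against 1.12 and 1.14. Their part in the Fxyd4 level was not tested. Mouse 1 therefore stood above all CCD mice and mice 2 and 3 below them. All 3 stood below every OMCD mouse (OMCD minus IMCD 2.79, SE 0.48, adjusted p 7.52e-06 by limma, and 3.53 with adjusted p 1.99e-07 by limma for mice 2 and 3 alone). The call between CCD and IMCD (1.26, SE 0.46, adjusted p 0.0338 by limma) was lost with a pseudocount of 0.1 (adjusted p 0.0958), after median ratio rescaling (0.94, adjusted p 0.173), without filter (adjusted p 0.0716), with pieces averaged before the log (adjusted p 0.064), and on leaving out any of CCD mice 1, 3 and 4 or IMCD mice 2 and 3 (0.82 to 1.26, adjusted p 0.0508 to 0.351). With IMCD mice 2 and 3 alone it was 2.0 (adjusted p 0.000986 by limma).

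Fxyd4 was also high in DTL3, at 1477, 1839 and 1850.3 TPM, between 17.3, 11.6 and 14.1 TPM in DTL2 and 8.41, 0.95, 27.1 and 29.3 TPM in ATL mice 2, 3, 4 and 6. All 3 DTL3 mice lay above all mice of both neighbours (DTL2 minus DTL3 -6.93, SE 0.51, adjusted p 1.64e-14 by limma; DTL3 minus ATL 7.26, SE 0.48, adjusted p 1.56e-16 by limma). Principal-cell genes were set beside this level. Aqp2, the apical water channel, was 5.61, 18.7 and 13.8 TPM in DTL3. In CNT, where Fxyd4 was at a similar level, Aqp2 was 5997, 7504 and 5056 TPM. The principal list (Aqp2, Aqp3 and Avpr2) summed to 17.3 to 42.2 TPM in DTL3. Its sum was 7561 to 10959 TPM in CNT and 26759 to 31085 TPM in IMCD. Hsd11b2, which protects the mineralocorticoid receptor from glucocorticoids, was 0, 0.27 and 0.495 TPM in DTL3 and 3480.2, 3429 and 3139.9 TPM in CNT. Hsd11b2 was also called lower in IMCD than in OMCD. The part of collecting duct cells in the Fxyd4 level of DTL3 was not tested. The water channel gene Aqp1, from the thin descending limb list, was 12081, 11152 and 11708 TPM in DTL3. The urothelium and papillary surface list of 6 genes (Upk1a, Upk1b, Upk2, Upk3a, Krt5 and Krt20) summed to 35.9 to 98.5 TPM in DTL3, its highest group, against 1.92 to 4.54 in DTL2 and 2 to 10.7 in ATL. In DTL3 1 to 2 of the 6 genes were at 1 TPM or more, Upk3a made up most of the sum (33.4 to 97.1 TPM) and Krt5 was listed at 0 in all 3 mice. Their part in the Fxyd4 level was not tested. Elsewhere Fxyd4 was 49.7 ± 17.2 TPM in DTL1, 42.4 ± 3.18 in PTS1, 16.6 ± 9.04 in GL and 7.28 TPM or less in every mouse of PTS2, PTS3, MTAL, CTAL and DCT. The ATL minus MTAL difference (2.92, SE 0.48, adjusted p 2.71e-06 by limma) was 1.54 with ATL mice 2 and 3 alone and 4.31 with mice 4 and 6 alone.

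**Figure D2:**
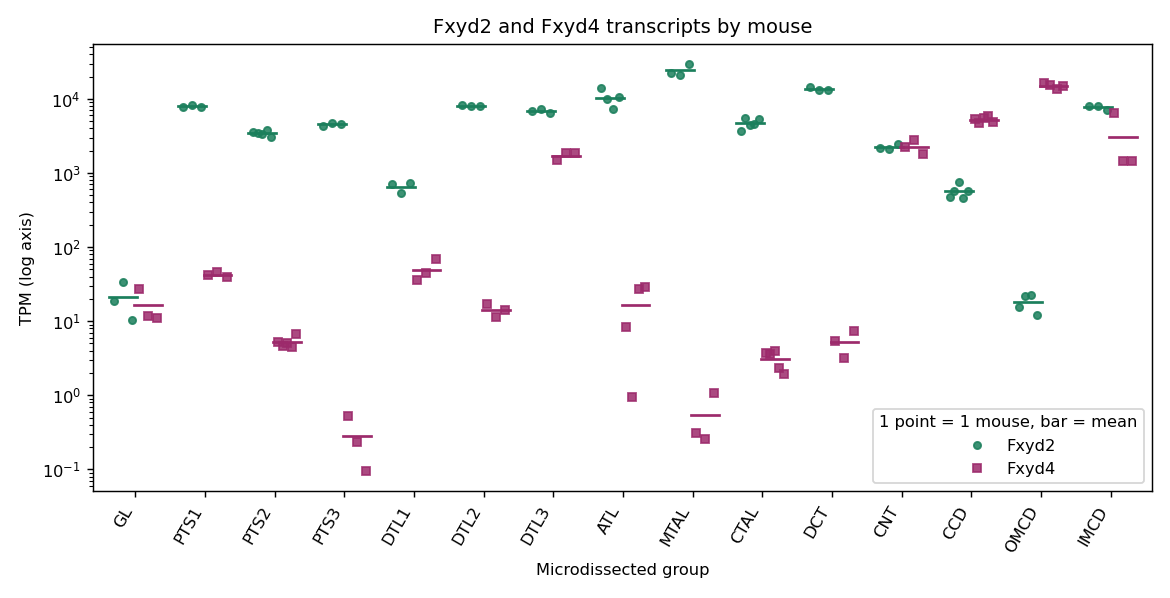
Levels of Fxyd2 (circles) and Fxyd4 (squares) in TPM on a log axis, 1 point per mouse with a bar at the mean. Fxyd2 falls from DCT to OMCD and returns in IMCD, while Fxyd4 rises from DCT to OMCD and is also high in DTL3.

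Set side by side as shares of the summed TPM of all Fxyd genes in the table, Fxyd2 made up over 99% in PTS1, PTS2, PTS3, DTL2, ATL, MTAL, CTAL and DCT (means from 99.2% to 99.9%). In CNT the sum was split between Fxyd2 (50 ± 7.13%) and Fxyd4 (49.7 ± 7.14%). Fxyd4 then made up 90 ± 2% in CCD and 99.5 ± 0.0885% in OMCD. In IMCD Fxyd2 was again the larger share in all 3 mice (56 to 84.1%), and in DTL3 Fxyd4 made up 19.7 ± 2.33%. The glomerulus was the group in which Fxyd5 held the largest mean share, with 64.7 ± 2.31%, ahead of Fxyd1 (15.2 ± 1.62%) and Fxyd6 (12.1 ± 2.93%). Summed Fxyd TPM over the sum of Atp1b1 and Atp1b3 alone, without Atp1b2, ran from 0.811 ± 0.197 in DTL1 to 17.6 ± 1.66 in PTS1. These ratios of transcripts are not ratios of proteins and were not tested.

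**Figure D3:**
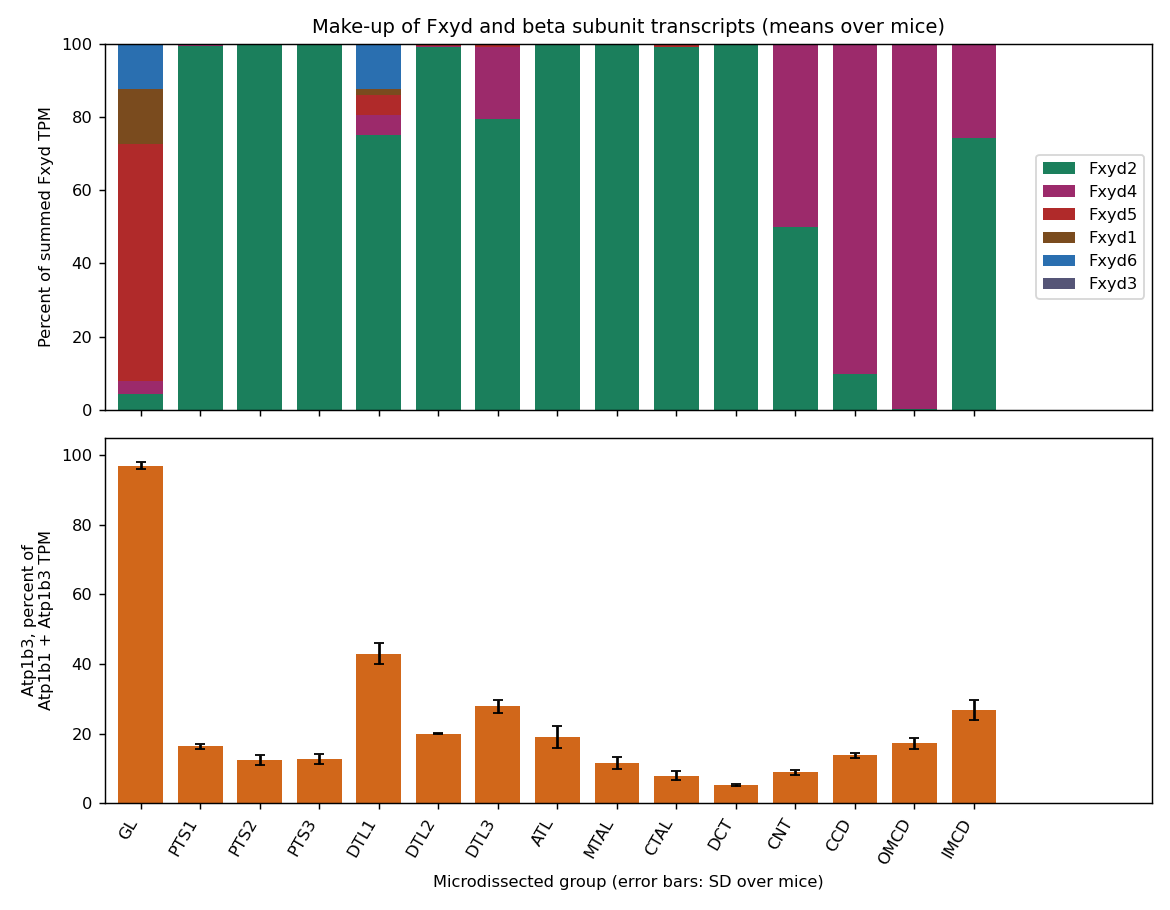
Upper panel: mean share of the summed Fxyd TPM taken by each gene in each group, in percent. Lower panel: Atp1b3 as percent of Atp1b1 plus Atp1b3, with bars at the mean over mice and error bars of 1 SD. Fxyd2 fills most tubule segments, Fxyd4 fills CCD and OMCD, and the glomerulus is made up mainly of Fxyd5.

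Fxyd3 (ENSMUSG00000057092), a family member first described in mammary tumours, was measured almost entirely in the collecting system. It was 29.9, 16.9, 35.7 and 44.8 TPM in OMCD, 4.79, 3.13, 4.67, 4.31 and 4.21 in CCD and 1.58, 1.61 and 0.555 in CNT. No mouse of any other group exceeded 0.855 TPM, it was listed at 0 in all 4 ATL mice, and in IMCD 2 of 3 mice were at 0 and the other at 0.0433 TPM. All 4 OMCD mice lay above all CCD mice, and these above all CNT mice (CCD minus OMCD -2.60, SE 0.18, adjusted p 1.58e-15 by limma; OMCD minus IMCD 4.93, SE 0.20, adjusted p 3.81e-24 by limma). The CNT minus CCD difference (-1.26, SE 0.19, adjusted p 3.03e-05 by limma) fell below the thresholds at pseudocounts of 0.1 (-1.85, adjusted p 0.0513) and 5 (-0.56, adjusted p 0.00155) and under quantile normalization (-0.83, adjusted p 0.0082). With a pseudocount of 5 the differences of CCD from CTAL and IMCD were also under 1 in size (-0.86 and 0.87). Lgi4 overlaps Fxyd3 on the other strand and was at 0.61 TPM or less in every OMCD mouse. The intercalated-cell list (Atp6v1g3, Atp6v0d2, Foxi1, Slc4a1 and Slc26a4) had a summed level of 2419 to 3287 TPM in OMCD, 3912 to 5139 in CCD, 5096 to 5801 in CNT and 0.333 to 4.79 in IMCD. Their part in the result was not tested.

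Fxyd5 (ENSMUSG00000009687), or dysadherin, is known for effects on cell adhesion as well as on the pump. It was 322, 319 and 285 TPM in the 3 glomerular mice, and the highest tubule group, DTL1, held 38.5, 52.4 and 44.7 TPM. Every glomerular mouse stood above every tubule mouse, the highest of which was 53.9 TPM in DTL3. It was 38.2 ± 16.8 TPM in DTL3, 27.1 ± 4.52 in CTAL, 20.3 ± 6.83 in DTL2, 15.9 ± 8.3 in ATL, 15.3 ± 3.64 in MTAL, 11.4 ± 3.51 in OMCD, 11.2 ± 2.19 in DCT, 10.4 ± 4.45 in CNT and 6.98 ± 1.33 in CCD. The proximal segments were lowest, at 2.07 to 3.35 TPM. In IMCD, mouse 1, the mouse with high Fxyd4, held 1.44 TPM and mice 2 and 3 held 23.5 and 22.3 TPM. The pieces of mouse 1 held 0.07, 4.24 and 0.02 TPM, those of mouse 2 held 61.9, 2.73 and 5.74 TPM and those of mouse 3 held 28.7, 9.34 and 28.9 TPM. The mean of mouse 2 thus came mostly from 1 piece, which was also its piece with the highest Fxyd4.

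Fxyd1 (ENSMUSG00000036570) encodes phospholemman, the phosphorylated regulator of the pump in heart and muscle. It was 63.7, 81.5 and 72.4 TPM in the glomerulus and 4.41, 26.1 and 13.2 TPM in DTL1 mice 1, 3 and 5, with no overlap between mice. DTL1 mouse 3 was the mean of 2 pieces at 48.4 and 3.77 TPM, and the first of these lay above the lowest glomerular piece, at 43.6 TPM. The means were 5.22 ± 1.96 TPM in DTL3, 3.02 ± 1.85 in OMCD, 2.9 ± 3.45 in ATL, 2.46 ± 2.2 in MTAL, 2.17 ± 1.66 in DTL2 and 1.78 ± 1.18 in IMCD. They were 1.15 TPM in CTAL, 1.06 in DCT, 0.663 in PTS1, 0.635 in CNT, 0.508 in CCD, 0.318 in PTS2 and 0.247 in PTS3. In this order, mice overlapped in 13 of the 14 neighbouring pairs, the exception being GL and DTL1. In ATL mice 2 and 3 were listed at 0 and mice 4 and 6 held 6.83 and 4.78 TPM, the same split as in the receptor background.

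Fxyd6 (ENSMUSG00000066705), or phosphohippolin, is best known from the nervous system. It was 83.7, 126 and 101 TPM in DTL1, 45, 58.1 and 68.1 in GL and 32.8, 28.1 and 25.2 in DCT. DTL1 and GL did not overlap, nor did GL and DCT. DCT stood above both of its neighbours, with 6.28, 4.02, 4.55, 4.23 and 5.93 TPM in CTAL and 1.63, 2.27 and 1.8 in CNT (CTAL minus DCT -2.35, SE 0.32, adjusted p 2.59e-07 by limma; DCT minus CNT 3.36, SE 0.36, adjusted p 7.72e-10 by limma). The levels were 19 ± 9.43 TPM in DTL2, 17 ± 9.41 in DTL3, 8.86 ± 0.923 in MTAL and 6.49 ± 2.37 in OMCD. They were 3.11 TPM in CCD, 2.87 in ATL, 2.79 in PTS3, 1.64 in IMCD, 0.385 in PTS2 and 0.153 in PTS1. OMCD stood above IMCD (8.52, 3.52, 8.28 and 5.65 against 1.63, 1.92 and 1.37 TPM; OMCD minus IMCD 1.46, SE 0.34, adjusted p 0.000569 by limma), a call lost under quantile normalization (0.69, adjusted p 0.205) and with a pseudocount of 5 (0.77, adjusted p 0.00447).

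Markers of other cells were set beside Fxyd1, Fxyd5 and Fxyd6. The stromal, mesangial and smooth muscle list of 8 genes (Acta2, Myh11, Tagln, Pdgfrb, Des, Col1a1, Col1a2 and Dcn) summed to 841 to 1164 TPM in GL, with 8 of 8 at 1 TPM or more, and to 48.9 to 57.6 TPM in DTL1. In DTL1 6 to 8 of the 8 genes were at 1 TPM or more. The sum was 63.8 to 80.4 TPM in CNT and 55 to 62.8 TPM in CCD, but there 1 to 4 of the 8 genes were at 1 TPM or more and most of it was Dcn (62.1 to 79.2 and 51.5 to 60.2 TPM). The 5 endothelial genes (Pecam1, Kdr, Cdh5, Emcn and Plvap) summed to 2993 to 3058 TPM in GL, 2764 to 3652 in DTL1, 1018 to 1871 in DTL2 and 633 to 1589 in DTL3. They summed to 364 to 486 TPM in OMCD and 21 to 302 TPM in IMCD, between which Fxyd6 was also called higher in OMCD. The 6 leukocyte genes (Ptprc, C1qa, C1qb, Lyz2, Cd52 and Cd68) summed to 412 to 515 TPM in GL, 110 to 225 TPM in CTAL, 93.6 to 172 TPM in MTAL and 19.6 to 99 TPM in DTL1. In ATL they summed to 156 TPM in mouse 4, the ATL mouse with the highest Fxyd1, and 0 to 18.5 TPM in the others. The stromal, mesangial and smooth muscle list summed to 51.4 TPM in that mouse and 1.11 to 14.3 TPM in the others. The part of these markers in the levels of Fxyd1, Fxyd5 and Fxyd6 was not tested. In DCT, where Fxyd6 was high, the receptor genes at 1 TPM or more numbered 0 in all 3 mice, while the endothelial list summed to 154 to 384 TPM and the leukocyte list to 46.9 to 80.5 TPM. In its neighbours the endothelial list summed to 192 to 433 TPM (CTAL) and 254 to 283 TPM (CNT). The leukocyte list summed to 45.2 to 118 TPM in CNT.

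**Figure D4:**
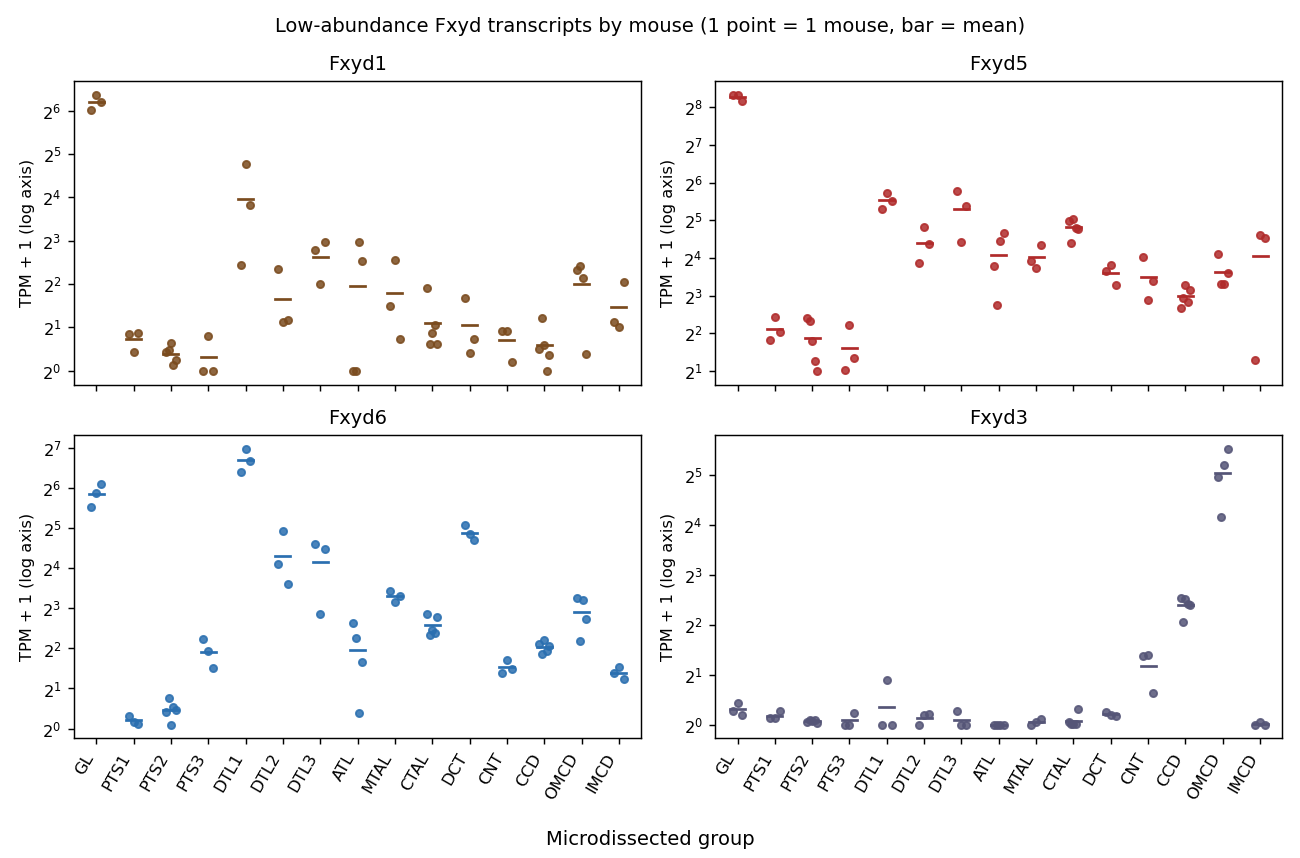
Levels of Fxyd1, Fxyd5, Fxyd6 and Fxyd3 as TPM + 1 on a log axis, 1 point per mouse with a bar at the mean. Fxyd1 and Fxyd5 peak in the glomerulus, Fxyd6 in DTL1, the glomerulus and DCT, and Fxyd3 in OMCD.

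All 8 genes differed among the 15 groups in limma's F-test (adjusted p under 0.05), as did 93.9% of all genes tested, so this count says little about them. A stricter question was whether a gene was higher in 1 group than in each of the other 14, with a margin of at least 1 log2 unit. This held for 3 of 8 genes, against 8.80% of all genes: Fxyd5 in GL (margin 2.80, SE 0.50, adjusted p 3.09e-05 by limma), Fxyd1 in GL (2.77, SE 0.56, adjusted p 0.000249 by limma) and Fxyd3 in OMCD (2.60, SE 0.18, adjusted p 7.22e-15 by limma). Of all genes, 3.22% passed in GL and 2.90% in DTL1, both high in receptor background, and 0.148% in OMCD. With a pseudocount of 0.1 the call of Fxyd1 was lost (margin 2.92, adjusted p 0.164 by limma). The stricter criterion did not hold for Fxyd2 in MTAL over DCT (0.83, SE 0.20, adjusted p 0.0689 by limma), Fxyd4 in OMCD over CCD (1.53, SE 0.42, adjusted p 0.161 by limma, and 0.00371 without ATL mouse 3) or Fxyd6 in DTL1 over GL (0.86, SE 0.36, adjusted p 0.127 by limma). Atp1b1 and Atp1b3 led in CTAL and DTL2 by 0.26 (SE 0.14) and 0.04 (SE 0.14), which did not pass.

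Across the 14 pairs of neighbouring segments the 8 genes gave 42 calls, against 17.5% of all genes and pairs called, a call needing an adjusted p under 0.05 and a difference of at least 1 in log2(TPM + 1), a scale that understates the changes of genes near 0 TPM. Fxyd4 gave 11, Fxyd2 10 and Fxyd6 9 of them, Fxyd3 and Fxyd5 3 each, and Fxyd1 and each beta gene 2. By pair, the share of all genes called ran from 1.12% between CNT and CCD to 65.5% between PTS3 and DTL1, so the pooled share is uneven. The median difference of all genes lay between -0.30 and 0.54 in 14 of the 16 comparisons, and was larger in size in those of PTS3 with DTL1 and DTL2. From PTS3 to DTL1, 6 of 8 genes were called, 5 of them higher in DTL1, against 65.5% of all genes called in either direction and 61.8% higher in DTL1; the median of all genes was itself -1.33 and that of the 8 genes -3.02. Fxyd2 alone was higher in PTS3. From PTS3 to DTL2, 5 were called, all higher in DTL2, against 40.0% in either direction and 36.2% higher in DTL2, with a median of -0.71 over all genes. Of all calls 5.73% were higher in PTS3 than in DTL1, and 50.8% after quantile normalization, under which 6 of the 8 genes and 27% of all genes were called. Between PTS3 and DTL2, 9.62% of all calls were higher in PTS3. That share was 48.4% after quantile normalization, under which 19.9% of all genes were called.

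From DTL1 to DTL2, 5 were called against 28.2% of all genes, with Fxyd1, Fxyd4 and Fxyd6 higher in DTL1 and Fxyd2 and Atp1b1 higher in DTL2. The share of all genes was 12.5% under quantile normalization and 8.05% with a pseudocount of 5. Of all calls 89.4% were higher in DTL1, and 43.9% under quantile normalization. The Fxyd1 call was lost under quantile normalization (1.16, adjusted p 0.076 by limma). Between DTL2 and DTL3 only Fxyd4 was called, against 9.58%. Between DTL3 and ATL, Fxyd4, Fxyd6 and Fxyd5 were called higher in DTL3, against 14.6%. The share of all genes was 31% with ATL mice 2 and 3 alone and 23.4% with mice 4 and 6 alone. Of those calls 90.8% and 46.8% were higher in DTL3. The Fxyd5 call (1.26, SE 0.47, adjusted p 0.0344 by limma) rested on DTL3 mice 1 and 3 and ATL mice 2 and 3, since it was lost without any of them (0.88 to 1.22, adjusted p 0.0638 to 0.184). It was also lost with a pseudocount of 0.1, without filter, after median ratio or quantile scaling, with all 93 samples as independent and with ATL mice 4 and 6 alone (0.62 to 1.33, adjusted p 0.0569 to 0.362). Between ATL and MTAL 3 were called, against 28.1%: Fxyd2 and Fxyd6 higher in MTAL and Fxyd4 higher in ATL. The share of all genes was 16.2% with ATL mice 2 and 3 alone and 47.4% with mice 4 and 6 alone. The Fxyd6 call was lost with ATL mice 2 and 3 alone (-0.84, adjusted p 0.0551) and with a pseudocount of 5 (-0.85, adjusted p 0.00121).

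In the proximal tubule Fxyd2 and Fxyd4 were called higher in PTS1 than in PTS2, against 9.57% of all genes, and the Fxyd2 difference fell under 1 log2 unit with quantile normalization (0.81). Between PTS2 and PTS3 Fxyd4 was higher in PTS2 and Fxyd6 in PTS3, against 4.70%, and both calls were lost with a pseudocount of 5. The Fxyd6 call was also lost without PTS3 mouse 1 (adjusted p 0.0716 by limma). Between MTAL and CTAL Fxyd2 alone was called, against 3.15%. Fxyd4 was just short of a call there (-1.42, SE 0.46, adjusted p 0.0531 by limma) and passed without any 1 of GL mouse 1, DTL1 mouse 5, ATL mice 3, 4 and 6, CTAL mouse 5 or IMCD mice 1 and 2, with an adjusted p of 0.00316 to 0.0496. Between CTAL and DCT Fxyd2 and Fxyd6 were called, both higher in DCT, against 4.35%. Between DCT and CNT Fxyd2 and Fxyd6 were higher in DCT and Fxyd4 in CNT, against 5.22%. Between CNT and CCD Fxyd2 was higher in CNT and Fxyd3 in CCD, against 1.12%.

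From CCD to OMCD Fxyd2 was lower and Fxyd3 and Fxyd4 were higher in OMCD, against 12.1% of all genes. Fxyd1 was just short of a call there (-1.18, SE 0.46, adjusted p 0.0506 by limma), with overlapping mice, and passed under 7 alternatives and with any 1 of 15 mice left out (-1.10 to -2.34, adjusted p 0.00964 to 0.0497). From OMCD to IMCD, 4 of 8 were called against 18.6%, with Fxyd3, Fxyd4 and Fxyd6 higher in OMCD and Fxyd2 in IMCD. Across the order, CTAL against CCD gave 4 calls against 8.88%: Fxyd2 and Fxyd5 higher in CTAL and Fxyd3 and Fxyd4 higher in CCD. CCD against IMCD gave 3 calls against 16.3%: Fxyd3 and Fxyd4 higher in CCD and Fxyd2 higher in IMCD.

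**Figure D5:**
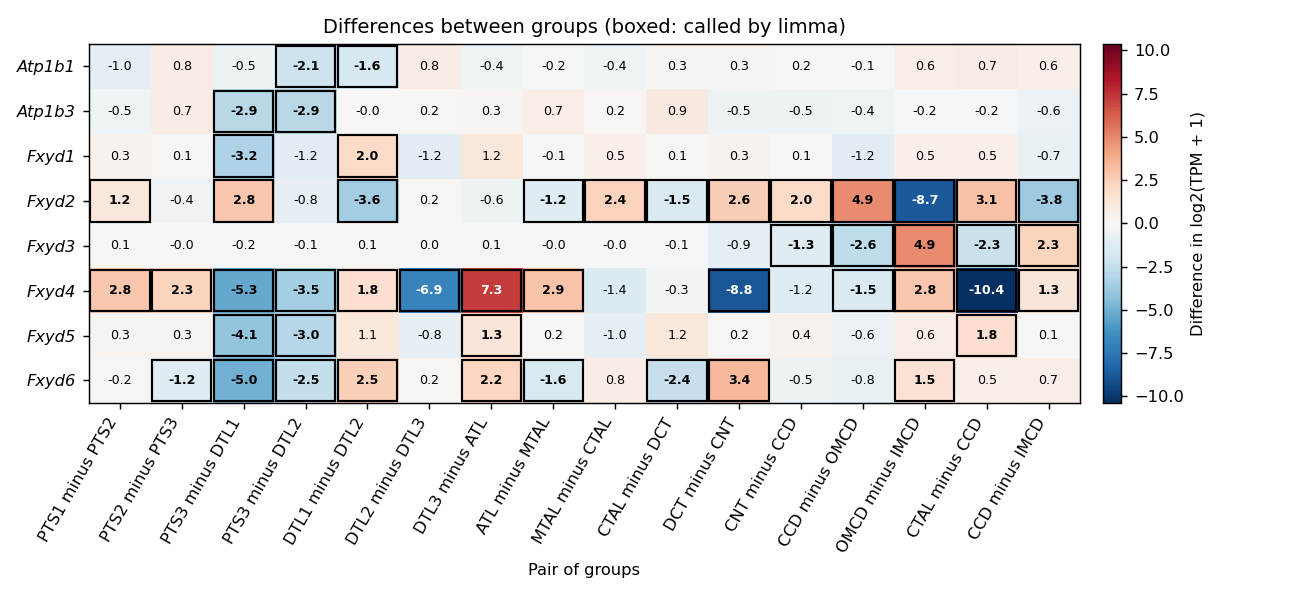
Differences in log2(TPM + 1), first group minus second, for the 8 genes (rows) in 16 comparisons (columns). Boxed cells passed limma's adjusted p under 0.05 with a difference of at least 1; Fxyd2 is boxed in each of the 6 steps from MTAL to IMCD.

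Genes that work beside the pump were set next to these levels. Of 10 genes for sodium entry and potassium recycling, 10 differed among groups, as did 9 of 9 genes that regulate the pump or its hormonal setting and 12 of 13 further pump genes tested, counts that lie near the 93.9% of all genes. Among all calls between OMCD and IMCD, 81.7% were higher in OMCD, and 45.9% after quantile normalization. From OMCD to IMCD 6 of the 10 sodium and potassium genes were higher in OMCD and 0 higher in IMCD, against 15.2% and 3.40% of all genes. Among them were the 3 subunit genes of the epithelial sodium channel: Scnn1a was 154 to 226 TPM in OMCD and 0.453 to 0.59 TPM in IMCD, Scnn1b 647 to 727 and 0.15 to 0.343 TPM, and Scnn1g 536 to 696 and 0.04 to 0.87 TPM. Kcnj1, the secretory potassium channel, was 754 to 1834 TPM in OMCD and 0.0767 to 0.223 in IMCD. Against the same shares, in the regulator list 4 of 9 were higher in OMCD, Hsd11b2 and the mineralocorticoid receptor gene Nr3c2 among them, and 2 higher in IMCD, including Sgk1, a kinase induced by aldosterone (OMCD minus IMCD -2.76, SE 0.53, adjusted p 4.66e-05 by limma). Aqp2 was 19190.5 to 34804 TPM in OMCD and 25310.4 to 29536 TPM in IMCD, with overlapping mice.

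From DCT to CNT 4 of the 9 regulator genes were higher in CNT, among them Hsd11b2 (DCT minus CNT -3.71, SE 0.23, adjusted p 3.82e-17 by limma), and 1 was higher in DCT, Ppp1r1a, a phosphatase inhibitor (967, 847 and 861 against 0.315, 2.62 and 0.355 TPM). Of all genes 3.70% were higher in CNT and 1.52% in DCT. Among all calls in this comparison 29.1% were higher in DCT. That share was 46.9% after median ratio rescaling and 45.8% after quantile normalization.

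The genes whose group means of log2(TPM + 1) ran most closely with each gene over the 15 groups were listed, among 11928 genes with a highest group mean of at least 10 TPM. These are descriptions over 15 groups, and both genes of a pair are read from the same samples with the same background. For Fxyd3 they were Pga5 (r 0.99), Actn3 (r 0.96) and Oas2 (r 0.93), all highest in OMCD. For Fxyd4 they were Nipal1 (r 0.93), Lrrc3 (r 0.91) and H2afz (r 0.91). For Fxyd1 they were Ddr2, Col1a2 and Des (r 0.98 to 0.99), which are highest in GL, and for Fxyd5 Sspn, Glipr2 and Tspan32 (r 0.96 to 0.98). For Fxyd6 they were Thsd1, Cavin3 and Pde2a (r 0.90 to 0.92), for Atp1b1 Crb3, Spint1 and Rnf128 (r 0.95 to 0.96), and for Atp1b3 Bod1l (r 0.97) and Dido1 (r 0.96). No gene ran as closely with Fxyd2, for which the 3 highest were Clpp, Grpel1 and Emc6 (r 0.77 to 0.78). Within the 8 genes the highest values were Fxyd1 with Fxyd5 (r 0.91), Fxyd5 with Fxyd6 (r 0.79) and Fxyd1 with Fxyd6 (r 0.74), while Fxyd2 and Fxyd4 gave -0.41 and the beta genes -0.03.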

How the data were processed

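Microdissected tubule pieces and glomeruli were sequenced as bulk RNA. The values are TPM as deposited by the authors in 1 table of 54532 genes, with a column for each of 93 samples. The submitters' processing notes name STAR 2.5.4a and RSEM 1.3.0 without a role. The genome build is not given in the sources used here. TPM hold no read counts, so depth is unknown and a count model was not used. The 3 single-cell samples were not analysed here. One column matched no sample title in full and entered PTS2 as a mouse without a number.

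Pieces of 1 mouse number and group were averaged, as TPM for the levels and as log2(TPM + 1) for the tests. Genes at 1 TPM or more in at least 3 mice (33793) were fitted with limma 3.58.1 in R 4.3.3 (lmFit, eBayes with trend), all 15 groups sharing 1 estimate of the spread. P-values are two-sided, or one-sided for the highest group, and adjusted by Benjamini-Hochberg over all genes within each comparison. A difference was called at an adjusted p under 0.05 and at least 1 log2 unit. The fit was tested on simulated data first. Some listed or similar genes are not reported here. The genes and lists were chosen with earlier results of these data known. Named genes are the 8, the fixed lists by counts with examples, and the 3 most similar genes to each by Pearson r. Alternatives were other pseudocounts, filters, scalings, piece averaging, a replicate block, robust variance, subsets of ATL mice and each mouse left out. The subset of IMCD mice 2 and 3 was chosen after the data were seen and is the same fit as leaving out IMCD mouse 1.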

Additional observations from a re-analysis of the deposited data

Results flagged for a closer look

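In each group of 4 or 5 mice, the highest or lowest mouse of each of the 8 genes was compared with the others by Dixon's 95% criterion. Of 40 such sets, 2 held a mouse that stood apart, and chance flags about 1 in 20. In CTAL, mouse 1 held 2.77 TPM of Fxyd1, whereas the other 4 mice ranged from 0.525 to 1.10 TPM. Also in CTAL, mouse 5 held 0.235 TPM of Fxyd3, whereas the others ranged from 0.005 to 0.03 TPM. Both levels are far below those of GL for Fxyd1 and OMCD for Fxyd3.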

How the results depend on the processing

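All 8 genes differed among groups under each of the 13 alternatives and with each of the 53 mouse values left out. Of the 52 calls on single genes, 0 reversed in any alternative. Over the 13 alternatives 652 of 676 repeats kept their call and 24 lost it, and over the 53 left-out mice 2746 of 2756 kept it and 10 lost it. A left-out mouse outside the groups compared leaves the difference unchanged and moves only the shared spread and the adjusted p. The same holds for the subsets of ATL and IMCD mice. Most left-out repeats are of this kind, so the share kept says little about single mice. The 42 calls between neighbours ranged from 38 (pseudocount 5) to 49 (ATL mice 2 and 3 alone), and from 41 to 46 with 1 mouse left out. The genes leading in 1 group numbered 2 (pseudocount 0.1) to 4, and 3 to 4 with 1 mouse left out. Single comparisons moved by more than 1.5 times as follows. PTS1 and PTS2 had 1 call under quantile normalization. PTS2 and PTS3 had 0 with a pseudocount of 5, and 1 to 2 with 1 mouse left out. DTL2 and DTL3 had 2 with all 93 samples as independent and with ATL mice 2 and 3 alone or 4 and 6 alone, Fxyd1 being added. MTAL and CTAL had 2 with a pseudocount of 0.1, a filter of 5 TPM in 3 mice, all 93 samples, either ATL subset or IMCD mice 2 and 3 alone, and 1 to 2 with 1 mouse left out. CNT and CCD had 1 with a pseudocount of 0.1. Differences not called that passed in 5 or more repeats were Fxyd1 between CCD and OMCD (22), Fxyd4 between MTAL and CTAL (14), Fxyd5 between DTL1 and DTL2 (7), Fxyd4 between CNT and CCD (5), Fxyd4 highest in OMCD (5), and Fxyd1 between PTS3 and DTL2 and between DTL3 and ATL (5 each). The fit with IMCD mice 2 and 3 alone is the same as that without IMCD mouse 1, so these counts hold it in both forms. Fxyd1 between ATL and MTAL passed in 3 repeats, not all in 1 direction. ATL minus MTAL was -1.50 with ATL mice 2 and 3 alone (adjusted p 0.0202 by limma). With mice 4 and 6 alone it was 1.25 (adjusted p 0.0284 by limma). Under quantile normalization it was -1.15 (adjusted p 0.0447 by limma). The cause was not tested.

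With the mouse number as a replicate block, 8 genes differed among groups, 43 calls between neighbours were made and 3 genes led in 1 group; 52 of 52 single calls were kept. Mouse values with the same number in different groups did not deviate together (median r 0.000185 over 290 pairs, range -0.22 to 0.282), as for other pairs (median r 0.000366 over 1016 pairs). Median ratio rescaling (factors 0.563 in a PTS3 mouse to 1.40 in a DTL3 mouse) moved 51 of the 120 group means of the 8 genes by more than 1 SD and 16 by over 1.5 times (0.732 to 1.78 times the deposited mean). The 16 were the means of the 8 genes in PTS1 and PTS3, all higher after rescaling. For example, Fxyd2 went from 8013 to 13077 TPM in PTS1 and from 4548 to 7611 TPM in PTS3. In DTL2 it went from 8060 to 6582 TPM. The group with the highest mean was unchanged for each of the 8 genes, and the lowest changed for Fxyd1, from PTS3 to CCD. Depth is unknown, so no floor can be given for values at 0 TPM.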
